A study of Jatropha curcas with 15 samples.

Results

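Among the transcripts measured in inflorescence buds of Jatropha curcas, 153 array probes lay below their starting level at 12, 24 and 48 h after treatment with 6-benzyladenine (BA), a synthetic cytokinin. This holds in the log2 table deposited by the authors, on which they were chosen. A probe was taken where the mean of the 3 arrays at 12 h, at 24 h and at 48 h each lay at least 0.8 below the mean of the 3 arrays at 0 h, and where its signal was well above background on all 15 arrays. Of 41651 probes, 32303 were well above background on every array, and 155 of these met the limits. Among the 155, the probes of *TASSELSEED2* (CUST_36773) and *JMT* (CUST_14900) were left out by name, which left the 153 members. Of these, 5 met the limits only through a spot marked as an outlier at 0 h. They stay in the counts and medians below, where the levels leave such spots out. The mirrored limits, at least 0.8 above 0 h at all 3 times, took 198 probes. The buds came from field-grown plants that were 1 year old, were sprayed with 1 mM BA, and were taken at 0 h and again after 3, 12, 24 or 48 h. Each time had 3 arrays, which the study's methods call biological replicates. No unsprayed buds were measured at the later times, so an effect of BA cannot be told apart from the time of day or the age of the bud.

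Cytokinins are plant hormones that act on the division and the fate of cells in meristems, the groups of dividing cells from which shoots and flowers arise. They are perceived by histidine kinases in membranes, and the signal passes to response regulators in the nucleus, some of which switch genes on while others dampen the signal. In J. curcas, a woody oil plant with male and female flowers on the same inflorescence, spraying of inflorescence buds with BA is known to raise the number of flowers and the share of female ones. The arrays measure RNA of whole buds, in which fewer cells of a type and less RNA per cell cannot be told apart.

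The tissue label was checked with the floral organ identity genes. The probes of *AP1*, *AP3*, *AG*, *SEP1*, *SEP2*, *SEP3* and *STK* were well above background on all 15 arrays, and that of *PI*, needed for petals and stamens, on 5 of 15. None of these genes was among the members. Levels are given as log2 intensity minus the 75th percentile of the same array, so that 0 is the level of the 75th percentile, and a difference of 1 is a 2-fold difference. The members started from ordinary levels: their median at 0 h was -1.05, against -1.29 for all probes well above background, and they ranged from -5.72 to 5.42. Their spread between replicates was wider, with a median SD within time points of 0.45 on the log2 scale, against 0.15 for all those probes.

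The probes were oligonucleotides of 60 bases. Probe sequences were read here for 11 of the 153 members, from shortened copies of the study's tables. Of these 11, 6 had a description taken from a protein of another plant, which was not checked against the sequence here. The sequences of these 6 are shown because they carry a listed name, and those of CUST_10765 and CUST_10982 because they were already lower at 3 h. They are written 5′ to 3′ as listed. No base is marked, and the strand relative to the transcript was not given in the sources used here.
CUST_10756, silicon transporter: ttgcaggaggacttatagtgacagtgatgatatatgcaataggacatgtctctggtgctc
CUST_10579, predicted protein: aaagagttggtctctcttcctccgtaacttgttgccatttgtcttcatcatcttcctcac
CUST_16830, cinnamoyl-CoA reductase: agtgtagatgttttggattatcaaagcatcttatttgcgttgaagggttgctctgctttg
CUST_17828, zinc finger protein: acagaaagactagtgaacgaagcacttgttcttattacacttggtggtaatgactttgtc
CUST_18222, amino acid permease: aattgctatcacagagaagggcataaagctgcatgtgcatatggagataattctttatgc
CUST_19223, rice locus Os02g0533300: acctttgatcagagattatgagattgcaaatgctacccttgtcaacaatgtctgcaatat
CUST_10765, no description: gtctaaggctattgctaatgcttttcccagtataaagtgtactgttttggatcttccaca
CUST_10982, no description: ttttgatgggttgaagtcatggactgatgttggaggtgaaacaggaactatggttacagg
The G+C content of the 11 sequences lay between 36.7% and 43.3% with a median of 38.3%. The median over the 2666 probes well above background whose sequences were read was 43.3%.

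The members reached their lowest point at 12 h. The median member lay 1.89 below 0 h on the log2 scale at 12 h (-1.89), at -1.22 at 24 h and at -1.02 at 48 h, while the median of all tested probes at 12 h was 0.02. These 3 changes chose the members and are given as a description with no test. At 12 h the change was deepest in 120 members, at 24 h in 17 and at 48 h in 16. A change of -2 or below was found for 69 members at 12 h, for 13 at 24 h and for 6 at 48 h, and 31 members reached -3 or below at 12 h. All 9 later arrays lay below all 3 arrays of 0 h in 106 of the 153 members, against 5.12% of all 34469 tested probes, a count that the choice of the members also fixes in part.

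**Figure D1:**
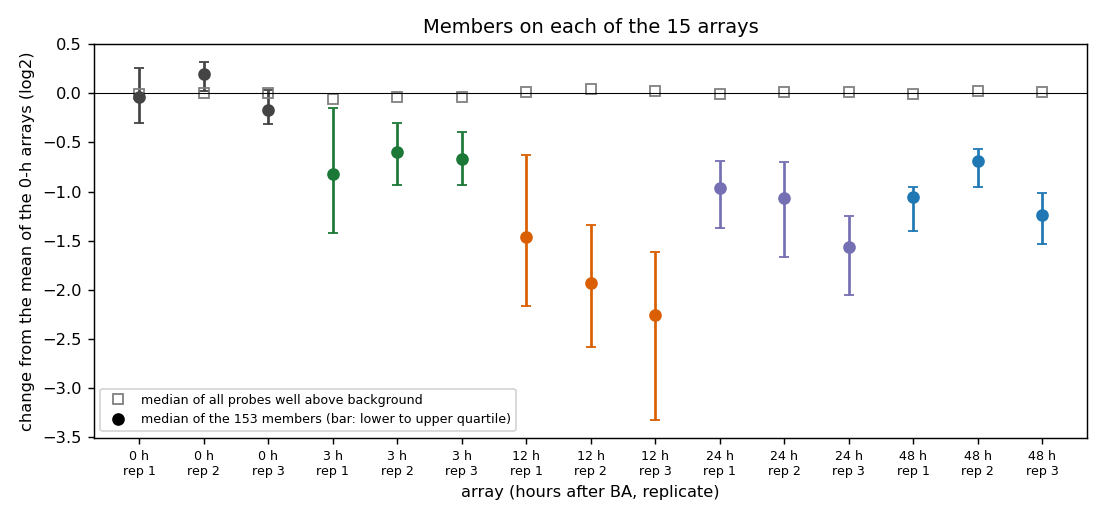
Median change of the 153 members from the mean of the 0-h arrays (log2, y axis) on each of the 15 arrays (x axis), with bars from the lower to the upper quartile, beside the median of all probes well above background (open squares). The members' median lies between -0.17 and 0.19 on the 0-h arrays, between -0.82 and -0.60 at 3 h, between -2.25 and -1.47 at 12 h, and between -1.56 and -0.69 at 24 and 48 h.

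On the single arrays, the members' median change was -1.47, -1.93 and -2.25 in replicates 1, 2 and 3 at 12 h. It was -0.96, -1.07 and -1.56 at 24 h, and -1.06, -0.69 and -1.24 at 48 h. Every array after 0 h therefore lay below every 0-h array in the members' median, and the second array of 48 h was the least lowered of the 6 late arrays. The same medians over all probes well above background stayed between -0.06 and 0.05 on all 15 arrays.

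**Figure D2:**
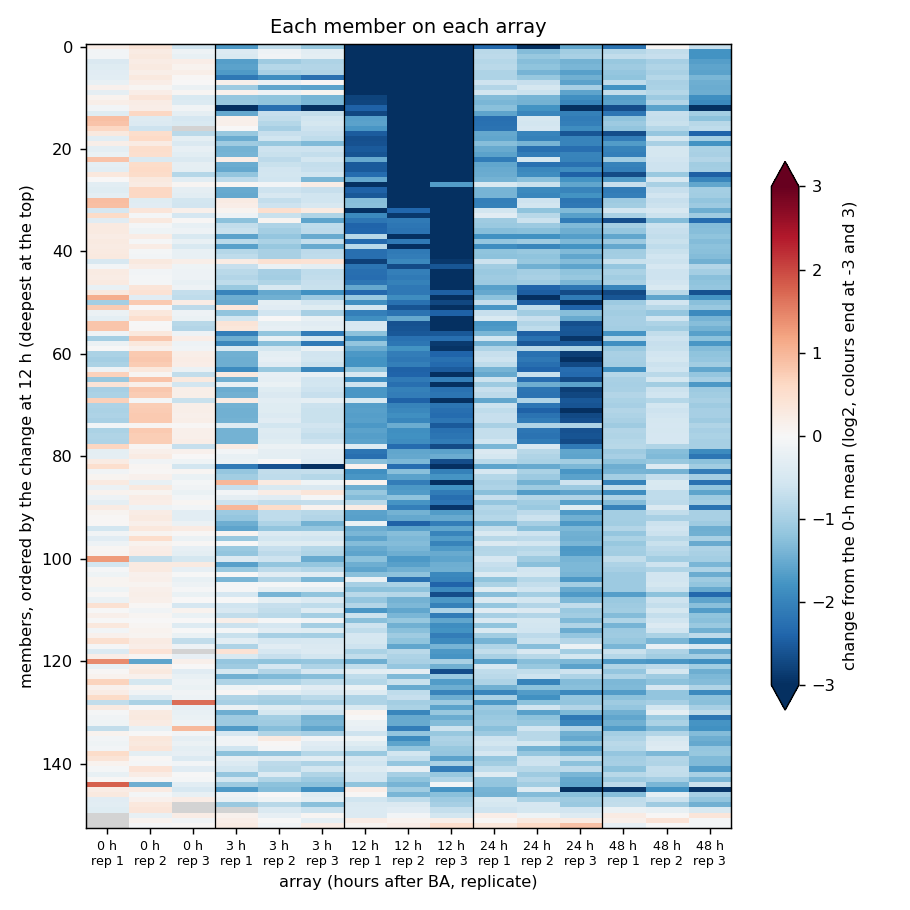
Change of each of the 153 members (rows, ordered by the change at 12 h) from its 0-h mean on each of the 15 arrays (columns), in log2 units, blue for lower and red for higher, with colours that end at -3 and 3; grey cells are spots marked as outliers. The darkest cells are in the 3 columns of 12 h, and single rows with a strong red cell at 0 h are members whose 0-h arrays disagree.

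Because the limits were set on the same arrays, the choice was repeated on 2 of the 3 replicate numbers and read on the arrays of the third. Without replicate 1, 201 probes were chosen (114 of them members), without replicate 2 190 (115 members), and without replicate 3 166 (103 members). On the arrays that had not been used, 77.1%, 77.9% and 89.2% of them were below 0 h at all 3 times, against 21.7%, 23.5% and 25.5% of all probes well above background. At least 0.8 below at all 3 times were 20.9%, 33.2% and 36.8% of them, against 0.693%, 0.625% and 0.994% of all. Their median change on the unused arrays for 12 h was -0.82, -1.52 and -2.04. For 24 h it was -0.51, -0.90 and -1.19, and for 48 h -0.90, -0.76 and -0.76. On arrays that had no part in the choice, most of the chosen probes were thus below 0 h at all 3 times. Their median there was shallower than that of the members on the same arrays, taken from the mean of all 0-h arrays, except in replicate 2 at 48 h. Each reading set 1 array of 0 h against all 3 times, so the 3 are not separate readings. All 0-h arrays were on another slide and scan day than those of 12, 24 and 48 h, so the unused arrays share any difference between slides or scan days.

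**Figure D3:**
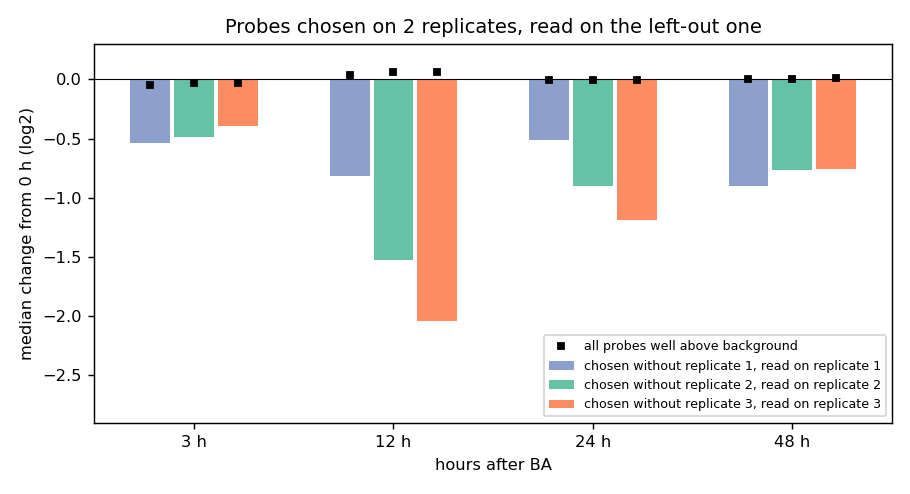
Median change from 0 h (log2, y axis) at 3, 12, 24 and 48 h of probes chosen on 2 replicate numbers and read on the arrays of the left-out number (bars, 1 colour per left-out number), with the median of all probes well above background on the same arrays (squares). The bars lie between -2.04 and -0.40, the squares between -0.05 and 0.06.

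Of the 3-h arrays, none entered the choice, but the comparison shares the 0-h arrays with it. The choice favours probes whose 0-h arrays were high by chance, which pulls their changes at 3 h downward. The counts and p-values at 3 h thus lean toward a fall, by an amount that was not tested. At 3 h 18 of the 153 members (11.8%) fell, with an adjusted p of at most 0.05 and at least a 2-fold change, against 0.896% of all tested probes, and none rose, against 1.69%. The test was limma's, with Benjamini-Hochberg adjustment over 34469 probes. At an unadjusted p under 0.05, 69 members were lower, against 15.6% of all tested probes, and 0 higher, against 11.6%. The 18 fell by between 1.07 and 2.82 on the log2 scale. The members' median change at 3 h was -0.80, against -0.04 for all tested probes, and the 3 arrays of 3 h lay below all 3 of 0 h in 81 members (52.9%), against 21.1% of all. On the arrays not used for the choice, the probes chosen without replicate 1, 2 or 3 had a median of -0.53, -0.48 and -0.40 at 3 h. The count depended on single arrays: it was 8 without the first and 9 without the third array of 3 h, and 10 without the second array of 0 h. Without that 0-h array the members' median change at 3 h was -0.58.

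The deepest falls at 3 h were those of CUST_13872, CUST_34635 and CUST_10579. CUST_13872, which had no description, had levels of 4.49, 4.77 and 4.47 at 0 h and stood at 1.46, 2.32 and 1.48 at 3 h. All 3 arrays of 3 h lay far below those of 0 h, a fall by 2.82 (SE 0.59, limma adjusted p = 0.00898). Its 9 later arrays spread from 0.37 to 3.32 and did not reach the 0-h levels. CUST_12809, singled out here after its values were seen for its small spread, was at -2.92, -2.89 and -3.25 at 0 h and at -4.46, -4.34 and -4.30 at 3 h. It fell by 1.35 (SE 0.16, limma adjusted p = 0.000259), and its lowest time was 3 h rather than 12 h. CUST_34635, likewise singled out, was at -2.21, -2.64 and -3.26 at 0 h and at -4.82, -5.32 and -5.91 at 3 h, a fall by 2.65 (SE 0.62, limma adjusted p = 0.0161). Its call was lost without the first array of 0 h (limma adjusted p = 0.0545), the second of 0 h (0.0535) or the third of 3 h (0.0674), and when slide (0.105) or scan day (0.183) was fitted as a block. The call for CUST_13872 was lost with scan day as a fixed block (limma adjusted p = 0.0515).

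Of the members with printed probe sequences, CUST_10765 and CUST_10982 also fell. CUST_10765 was at -3.28, -3.13 and -4.29 at 0 h and at -5.55, -5.11 and -5.39 at 3 h. It fell by 1.78 (SE 0.46, limma adjusted p = 0.0244), and its 12-h arrays were at -5.93, -5.71 and -6.01. CUST_10982 was at -1.35, -0.90 and -1.39 at 0 h and at -3.09, -2.35 and -3.16 at 3 h. It fell by 1.65 (SE 0.41, limma adjusted p = 0.0202), and stayed between -3.71 and -1.81 on the 9 later arrays. In both, no later array reached the level of the 0-h arrays. Both calls were lost when slide, or scan day, entered as a fixed block (limma adjusted p = 0.108 and 0.1 for CUST_10765, 0.0757 and 0.081 for CUST_10982) and without single arrays. Without the second array of 0 h or the first or the third array of 3 h, the limma adjusted p was 0.0967, 0.0809 and 0.0726 for CUST_10765 and 0.079, 0.0723 and 0.078 for CUST_10982, and without the first array of 0 h it was 0.0729 for CUST_10765.

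The members fell into groups by their 3-h change. In 101 it was -0.5 or below, in 51 between -0.5 and 0.5, and in 1 it was 0.5 or above. The 51 members without a change of that size at 3 h still had a median of -1.75 at 12 h. An example is the pair CUST_18859 and CUST_18114, whose change at 3 h was 0.00 and 0.02 and at 12 h -4.31 and -4.13.

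The largest changes at 12 h were found in a small set with a deep trough at that time and higher levels at 24 and 48 h. The lowest mean of the 3 changes was that of CUST_31960, with no description. It was at 3.11, 3.31 and 2.33 at 0 h and at 1.22, 2.16 and 1.79 at 3 h. It stood at -2.72, -4.61 and -4.94 at 12 h, 129-fold below 0 h in the mean. At 24 h it was at 0.58, -0.38 and 1.36, and at 48 h at 0.72, 2.96 and 2.23. The 12-h arrays did not overlap with any others, and at 48 h 1 array overlapped with those of 0 h.

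CUST_10756, listed as a silicon transporter after a Ricinus communis protein, belongs to a class of membrane proteins known from rice to carry silicic acid. It was at -0.74, -0.37 and -0.88 at 0 h and at -1.11, -0.78 and -0.94 at 3 h. At 12 h it was at -6.94, -6.55 and -6.74, a 67.7-fold difference from 0 h. It then stood at -1.45, -1.79 and -1.63 at 24 h and at -1.41, -1.36 and -2.45 at 48 h. The third array of 48 h was more than 2-fold below the other 2, and the 6 late arrays lay between those of 12 h and those of 0 h. Its change at 3 h, -0.28 (SE 0.25), did not pass the test (limma adjusted p = 0.514).

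CUST_15082, with no description, followed CUST_10756 on all 15 arrays, with r = 0.9992 between them and levels that differed by 0.0638 on average. It stood at -7.14, -6.38 and -6.69 at 12 h, 69.3-fold below 0 h, and at 24 h its change from 0 h was -1.05. A second set of this kind was formed by CUST_9941, CUST_3679 and CUST_2469, none with a description. CUST_9941 was at -1.13, -0.47 and -0.50 at 0 h, at -2.35, -1.77 and -1.62 at 3 h, and at -6.12, -6.09 and -6.54 at 12 h. These 3 probes fell at 3 h by 1.22, 1.21 and 1.12 (limma adjusted p = 0.00801, 0.0101 and 0.0105), while the changes of CUST_10756 and CUST_15082 at 3 h did not pass the test. Without the first array of 3 h, the falls of CUST_3679 and CUST_2469 were under 2-fold, as was that of CUST_2469 without the second array of 0 h. At 12 h the 3 probes were 46.9-fold, 37.6-fold and 40.9-fold below 0 h.

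CUST_10579 is described as a predicted protein of Populus trichocarpa, with no role given. It was at -1.91, -1.32 and -1.58 at 0 h and at -3.74, -3.48 and -3.87 at 3 h. This was a fall by 2.09 (SE 0.20, limma adjusted p = 6.69e-05). It went on to -6.19, -6.02 and -6.60 at 12 h, 25.4-fold below 0 h, and stood at -2.53, -2.75 and -3.04 at 24 h and at -2.81, -2.45 and -2.97 at 48 h. The arrays of 0, 3 and 12 h did not overlap, and its late arrays were above those of 3 h.

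CUST_14828 and CUST_17259, with no description, were also among the 10 lowest by mean change. CUST_14828 was at -0.63, -0.41 and -1.73 at 0 h, at -2.06, -1.62 and -1.61 at 3 h and at -3.41, -4.18 and -5.44 at 12 h. It stood at -2.46, -2.91 and -3.48 at 24 h and at -3.58, -2.09 and -3.32 at 48 h, 4.21-fold below 0 h. CUST_17259 followed it over the 15 arrays with r = 0.9982, and was 4.22-fold below 0 h at 48 h. In both, all 9 arrays from 12 h on lay below the 3 arrays of 0 h, while their differences of 48 h from 12 h were 1.35 (SE 0.52) and 1.20 (SE 0.54).

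**Figure D4:**
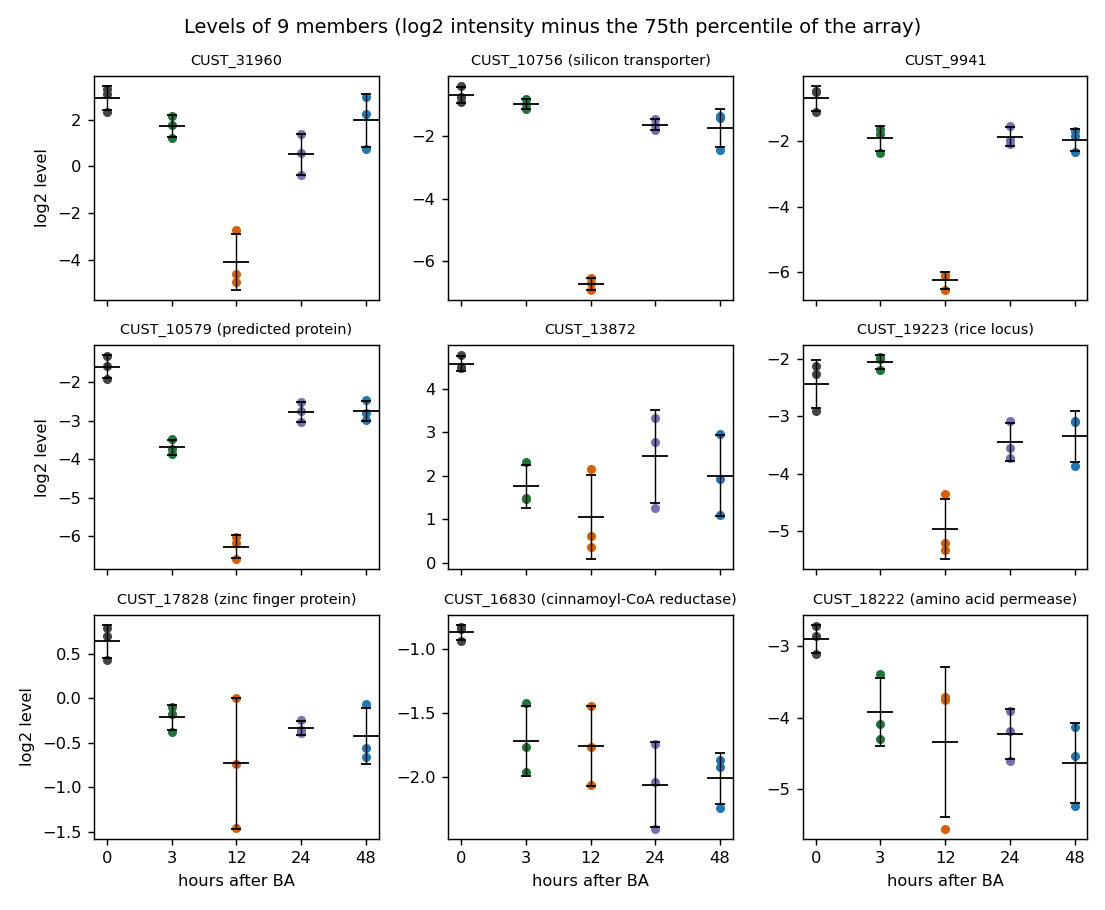
Levels of 9 members (y axis, log2 intensity minus the 75th percentile of the array, own scale in each panel) by hours after BA (x axis); points are arrays, and black bars are the mean with the SD of 3 arrays. In CUST_31960, CUST_10756, CUST_9941, CUST_10579 and CUST_19223 all 3 arrays of 12 h lie below all others. In CUST_16830 and CUST_18222 they do not, although the lowest single array of CUST_18222 is the third of 12 h (-5.55).

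The other 4 members with a description changed less. CUST_16830 is listed as a cinnamoyl-CoA reductase, the enzyme that opens the branch of phenylpropanoid metabolism leading to lignin monomers. It was at -0.84, -0.83 and -0.94 at 0 h and at -1.42, -1.77 and -1.97 at 3 h, lower on all 3 arrays. Its change at 3 h was -0.85 (SE 0.19, limma adjusted p = 0.0141), which is under 2-fold. At 12 h it was at -1.45, -2.07 and -1.77, at 24 h at -2.04, -1.74 and -2.41, and at 48 h at -1.93, -1.87 and -2.24. Its 12 arrays from 3 h on thus lay between -2.41 and -1.42, and its differences of 24 h and 48 h from 12 h were -0.30 and -0.25 (SE 0.19 each).

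CUST_17828 is listed as a zinc finger protein. This name is the study's, was not checked against the sequence here, and does not settle what the probe's target encodes. The probe was at 0.80, 0.70 and 0.44 at 0 h and at -0.09, -0.17 and -0.37 at 3 h, with a difference of -0.86 (SE 0.28, limma adjusted p = 0.0638). At 12 h it was at 0.00, -0.74 and -1.46, the widest spread of its 5 time points. At 24 h it was at -0.36, -0.24 and -0.39, and at 48 h at -0.66, -0.07 and -0.55. No array after 0 h reached the 0-h range, although the 3 arrays of 12 h differed among themselves by more than 2-fold.

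CUST_18222 is listed as an amino acid permease, a membrane protein that takes up amino acids into cells. It was at -2.86, -2.72 and -3.10 at 0 h and at -3.39, -4.29 and -4.09 at 3 h. It reached -3.71, -3.75 and -5.55 at 12 h and -4.54, -4.13 and -5.24 at 48 h. It was 1 of the 16 members whose lowest mean was at 48 h, 3.35-fold below 0 h, and its 3-h change of -1.03 did not pass the test (limma adjusted p = 0.152). CUST_19223, described after the rice locus Os02g0533300 with no role given, was at -2.91, -2.12 and -2.25 at 0 h and at -2.18, -1.96 and -1.99 at 3 h. It was at -5.22, -4.36 and -5.33 at 12 h, at -3.07, -3.55 and -3.73 at 24 h and at -3.10, -3.07 and -3.86 at 48 h. The 12-h arrays did not overlap with any others. Its nearest member over the 15 arrays was CUST_688, with r = 0.9925.

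The steps between 12, 24 and 48 h are differences of the values that chose the members, so they are given as a description, and nothing is read from the counts. By the limits of an adjusted p of at most 0.05 and at least 2-fold (limma), 38 of the 153 members were higher at 24 h than at 12 h, against 4.06% of all tested probes, and 0 were lower, against 1.88%. At 48 h 44 were higher than at 12 h, against 5.3%, and 0 lower, against 2.92%. At an unadjusted p under 0.05, 64 were higher at 24 h than at 12 h, against 18.6% of all tested probes, and 1 lower, against 18.8%. At 48 h 70 were higher than at 12 h, against 20.9%, and 2 lower, against 21.7%. The members past the limits in both steps numbered 37. The largest differences of 48 h from 12 h were 6.06 (SE 0.65) in CUST_31960, 5.01 (SE 0.25) in CUST_10756 and 4.98 (SE 0.26) in CUST_15082. Without the third array of 12 h, the lowest of its time, 24 members were past the limits upward and 1 downward from 12 to 24 h.

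Between 24 and 48 h the members' median difference was 0.12. By the same limits 0 members were higher, against 0.743% of all tested probes, and 0 lower, against 1.39%, shares so small that the count says nothing of the members. At an unadjusted p under 0.05, 5 members were higher, against 13.2% of all tested probes, and 1 lower, against 11.6%. Without the first array of 24 h, 8 members were past the limits upward. Sets of members had other values: in the largest group of probes with alike courses, which held 15 members, the median change from 0 h was -1.91 at 24 h and -0.86 at 48 h. By the grouping of the whole course from 12 to 48 h, 96 members gained 0.5 or more, 52 stayed within 0.5 and 5 lost 0.5 or more. The largest further differences downward, from 12 to 48 h were those of CUST_6284 (-1.68, SE 0.64), CUST_12179 (-0.63) and CUST_10547 (-0.63). CUST_6284 was at -3.83, -3.80 and -4.54 at 0 h and at -6.96, -5.88 and -6.98 at 48 h, with 2 arrays of 48 h below all others except 1 array of 24 h at -7.35.

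Some members had nearly the same course. Of the 11628 pairs of members, 205 had a Pearson r of at least 0.99 over the 15 arrays, and the median over all pairs was 0.67. The points of each correlation share arrays, time points and slides, and the members were chosen for alike courses, so these are descriptions with no test. Joined by such pairs, 79 members formed 20 groups of 2 to 15 probes, and 74 members were in no group. The array was designed on expressed sequence tags and unigenes, and the study gives more probes than transcripts for it. Several probes may thus belong to 1 transcript or to close copies, and the counts given here are of probes, not of genes. The members called at 3 h held whole groups of this kind, such as CUST_2469, CUST_3679 and CUST_9941, or CUST_10982 and CUST_18067. The 11 members with a target name had 11 different ones, and the targets of the other 142 were not read here, so the number of transcripts behind the 153 probes is not known from these values.

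The largest group held 15 probes, among them CUST_21280, CUST_21381 and CUST_23641, with levels at 0 h between -4.30 and -1.88. Its 0-h arrays differed widely, with medians of -0.95, 0.78 and 0.19 around their mean. At 12 h they were at -1.73, -2.03 and -2.24, at 24 h at -0.70, -2.21 and -2.72, and at 48 h at -0.96, -0.57 and -1.05. The first array of 0 h was thus as low as several arrays of 24 and 48 h, and the 15 probes moved together on it. None of the 15 was called at 3 h.

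The second group held 8 probes, CUST_16667 and CUST_552 among them, and its arrays were closer. They were at 0.27, -0.06 and -0.21 at 0 h, at -0.78, -0.98 and -0.76 at 3 h, and at -2.28, -2.11 and -3.29 at 12 h. At 24 h they were at -1.14, -1.08 and -1.33 and at 48 h at -1.03, -0.64 and -1.27, with no overlap with 0 h at any time. The third group, with 7 probes such as CUST_32024 and CUST_9255, was at -2.53, -3.56 and -3.89 at 12 h and at -2.05, -0.61 and -1.02 at 48 h.

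The fourth group and the group after it held 6 probes each, and their arrays of 12 h lay far apart. The fourth, with CUST_4520 and CUST_14514, was at -1.55, -3.64 and -4.83. The fifth, with CUST_6030 and CUST_13262, was at -0.48, -2.51 and -3.28. Its 0-h levels were between 3.68 and 5.42. At 24 h it was at -1.63, -0.76 and -2.47. In both groups the first array of 12 h was the least lowered, as it was in the median of all members.

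**Figure D5:**
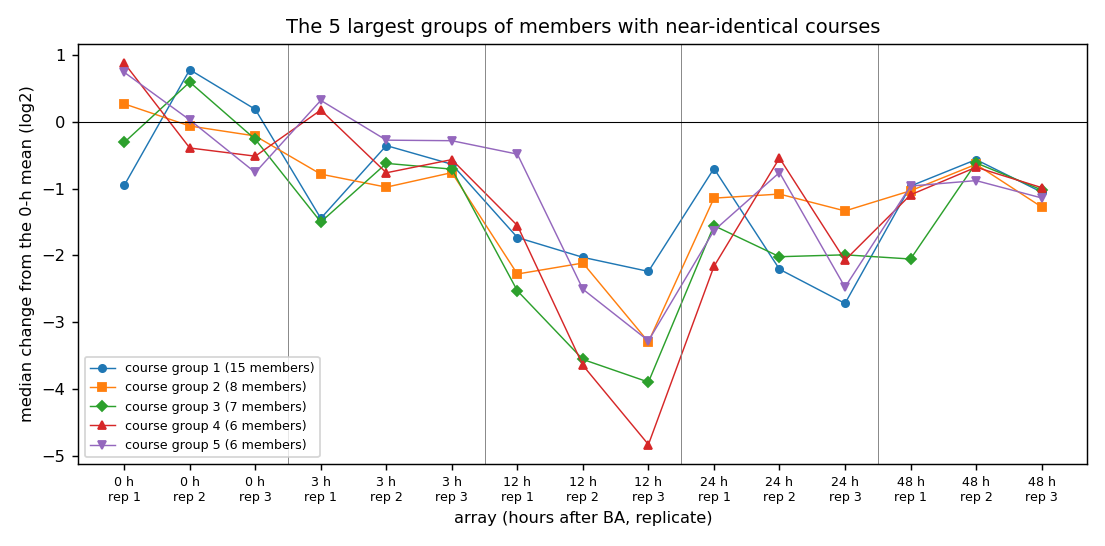
Median change from the 0-h mean (log2, y axis) on each of the 15 arrays (x axis) for the 5 largest groups of members joined by pairs with r of at least 0.99 (15, 8, 7, 6 and 6 members). All 5 lie at or below -0.48 on the 12-h arrays, which spread from -4.83 to -1.55 in the fourth group.

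No slide and no scan day held both 0-h arrays and arrays of 12, 24 or 48 h. The first slide carried the 3 arrays of 0 h and the first array of 3 h, the second slide the other 3-h arrays and 2 arrays of 12 h, the third the last 12-h array with those of 24 h, and the fourth those of 48 h. Within the first slide, the 3-h array was below the 0-h mean in 126 of 152 members (82.9%, against 59.0% of all probes well above background), with a median of -0.82. Within the second, the 12-h arrays were below the 3-h arrays in 132 of 153 members (86.3%, against 42.4%), with a median of -1.09. Within the third, the 24-h arrays were below the 12-h array in 12 of 153 (7.84%, against 50.8%), with a median of 0.98. Across slides, the 3-h arrays of the second slide differed from that of the first by a median of 0.01, and the 12-h array of the third slide from those of the second by -0.69. Within slides, 0 could thus be compared with 3 h, 3 with 12 h and 12 with 24 h. The difference of 48 h from 0 h was measured between slides and scan days alone. The arrays of 0, 12 and 24 h also chose the members, so the values within slides are a description with no test. The step within the third slide rests on the last 12-h array, which was lower than the others of its time.

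By the fit over all arrays, 125, 77 and 56 members were called lower at 12, 24 and 48 h, against 5.54%, 0.998% and 0.818% of all tested probes. These are the contrasts that chose the members, and nothing is read from the counts. With scan day as a fixed block, which leaves 1 array of 3 h as the only link to 0 h, the counts were 55, 3 and 1, with median changes of -1.95, -1.24 and -1.17. With slide as a fixed block they were 55 and 0 at 12 and 24 h, with medians of -1.80 and -0.69, and the 48-h change could not be estimated.

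For 7 members a spot had been marked as an outlier by the extraction software on a 0-h array, and 1 of these also on a 3-h array. The deposited log2 table keeps such spots, while the levels given here leave them out. With these spots taken as missing in the deposited table, 5 of the 7 no longer met the rule, so that their membership rested on a marked spot. The changes at 12, 24 and 48 h were then -0.61, -0.72 and -1.09 for CUST_12968 and -0.49, -0.76 and -0.38 for CUST_21663, smaller but still below 0 h. The other 3 of the 5 lay near their 0-h level. CUST_6326 stood at -3.75 and -3.67 on the 2 remaining 0-h arrays and between -3.96 and -2.84 on the 12 later ones. CUST_13874 was at -3.29 and -3.52 at 0 h and between -3.68 and -2.98 later. CUST_18107 was at -3.66 and -3.20 at 0 h and between -3.99 and -3.08 later. Their later arrays thus overlapped with, or lay around, those of 0 h. The fall at 3 h was called for 17 of the 146 members with no marked spot.

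At the limit itself, the members just inside were CUST_20989, CUST_23641 and CUST_21003, with smallest changes of -0.8001, -0.8008 and -0.8035 in the authors' table. Just outside were CUST_14293, CUST_40380 and CUST_16495 with -0.7959, -0.7894 and -0.7848. CUST_14293, with changes of -3.18, -1.61 and -0.80 at 12, 24 and 48 h, had a course like that of members with a trough at 12 h.

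The probes of *TASSELSEED2* and *JMT* met the limits but were left out by name, so the counts of the study's flowering and hormone genes were set in part beforehand. Of 32 probes of flowering genes, 27 were well above background on all 15 arrays, and of 115 probes of hormone genes 108, and 0 of each were members once the named probes were left out. Of 854 described entries in the probe list, 798 were well above background on all arrays and 6 were members. By words in their descriptions, 2 of 18 transporters, 1 of 13 phenylpropanoid and flavonoid entries and 1 of 31 transcription factor entries that were well above background throughout were members. The last is CUST_17828, counted by its listed name alone, so whether a transcription factor is among the members is not known here. Of 20 photosynthesis, 16 ribosome and translation and 37 redox entries, 0 were members. Of all 32303 probes well above background on every array, 153 were members, so a count of 0 in lists of these sizes says nothing of the lists. The described entries are the first part of the probe list and were not drawn at random, so the shares describe them only.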

How the data were processed

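Inflorescence buds were measured on 15 one-colour Agilent arrays, 3 at each of 5 time points. The authors deposited the intensity of each spot after background subtraction and detrending by Agilent's Feature Extraction software, with no scaling between arrays, and 1 table of log2 values for all arrays, of which 99.98% lie within 0.1 of quantile-normalised log2 intensities. The rule that chose the members was applied to the deposited log2 table. The members and the lists were chosen with earlier results of these data known. Reported levels are log2 processed intensities minus each array's 75th percentile, with control and outlier-marked spots left out and repeated spots averaged. The 34469 probes well above background on all 3 arrays of a time point entered 1 linear model of all 15 arrays, with time point as its factor (limma 3.58.1, R 4.3.3). Its p-values were adjusted over all of them by Benjamini-Hochberg, and it was tested on simulated data. Calls required a change of at least 2-fold and an adjusted p no higher than 0.05. Named were the members with a description at an e-value of at most 1e-05, the 10 lowest by mean change, the 3 on each side of the limit, and the 3 that changed most from 12 to 48 h in each direction. Alternatives covered scaling, background correction (normexp, offset 50), filters, slide, scan day and replicate number as blocks, the arrays fitted, and each array left out. No probe was matched to the reference gene table, which holds no link to the probe names. The share of probes well above background per array ranged from 79.0% to 84.0%, and the number of arrays limits the precision. The sources used here do not name the plants behind each array, so p-values measure the spread between these arrays.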

Additional observations from a re-analysis of the deposited data

Results flagged for a closer look

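The change from 0 h differed between time points, by the fit's difference of 2 times, in a number of members. The values at both times set the membership, so this is a description and no independent test. From 12 to 24 h 38 members were past the limits upward, and from 12 to 48 h 44. Among the named members, the difference from 12 to 24 h was 5.12 for CUST_10756, 5.07 for CUST_15082, 4.61 for CUST_31960, 4.37 for CUST_9941, 4.23 for CUST_2469, 3.92 for CUST_3679, 3.50 for CUST_10579 and 1.52 for CUST_19223. From 12 to 48 h it was 6.06 for CUST_31960, 5.01 for CUST_10756, 4.98 for CUST_15082, 4.28 for CUST_9941, 4.17 for CUST_2469, 3.98 for CUST_3679, 3.53 for CUST_10579 and 1.62 for CUST_19223. All values are on the log2 scale, and each was higher on every array of the later time than on every array of 12 h.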

How the results depend on the processing

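The rule took 53 probes with a limit of -1, 385 with -0.6, 93 on normexp-corrected intensities (89 of them members) and 472 without the filter on background. On 75th-percentile-scaled intensities, the scale of the levels given here, it took 140, 131 of them members. On quantile-normalised intensities it took 147, 146 of them members. With marked spots taken as missing, an alternative chosen after seeing the data, it took 149, 148 of them members. Leaving out arrays gave 135 to 227 probes. Of the 153 members, 110 were kept without the second array of 0 h and 115 without the first. The members called lower at 3 h numbered 8 to 26 when each array was left out, and 12 to 27 under the other alternatives. Those called from 12 to 24 h numbered 25 to 54 and 30 to 57, those from 24 to 48 h 0 to 8 and 0, and those from 12 to 48 h 36 to 61 and 38 to 50. With slide as a fixed block, the members' median was -0.69 at 24 h and 0.98 from 12 to 24 h; the cause was not tested. The other medians moved by less than the members' SD of 0.45. With the replicate block, 20 members were called lower at 3 h, 39 from 12 to 24 h, 46 from 12 to 48 h and 0 from 24 to 48 h. Arrays share only a number: 11 of 30 same-numbered pairs and 18 of 60 different-numbered pairs had deviations correlated above 0.1. Of 15 arrays, 6 correlated best with their own number.

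The members' number of transcripts is not known, 0-h values of several members differ by more than 2-fold between arrays, and the change at 48 h cannot be told apart from slide and scan day. Of the falls of named members called at 3 h, those of CUST_10579 and CUST_9941 passed under all 26 alternatives, and those of CUST_13872, CUST_3679, CUST_2469 and CUST_12179 were lost under 1, 1, 3 and 20.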
